A study of Homo sapiens with 6 samples.

Results

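The comparison described here set tumors directly against cell culture in a pooled CRISPR/Cas9 screen of synovial sarcoma cells, and asked which gene disruptions left cells more or less abundant in the animal than in the dish. It used 4 of the 6 guide libraries of the series, 2 from xenograft tumors and 2 from cultured cells, and covered 348 genes. Every library came from HS-SY-II, a human synovial sarcoma cell line with the SS18::SSX1 fusion, made to express Cas9, transduced with the guide library and selected with puromycin. The in vitro libraries were cells kept in culture for 14 days, and the in vivo libraries were tumors grown under the skin of athymic nude mice, which lack T cells, from cells of the same transductions mixed with Matrigel. Tumors were taken when they reached a set volume and not at a set time, so the arms differ in duration as well as in surroundings, and these cannot be told apart. Cells of each replicate went into 4 mice. The labels number the tumors replicates 1 and 2, whereas the study's own correlation matrix names both as mice of replicate 1, so it is not settled that the tumors stem from separate transductions. The p-values below measure the spread between these libraries, which may be partly technical, and all results concern 1 cell line.

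In such a screen each guide RNA leads Cas9 to cut 1 gene, and most cells carry a single guide, so the reads of a guide count the descendants of cells that lost that gene. Guides against genes that cells need for growth become rarer with time, and guides against genes that hold growth back become more common. A tumor adds demands that culture lacks, such as engraftment, contact with matrix and limited nutrients, and it is often founded by fewer cells, which lets the abundance of any guide drift. Non-targeting guides, which match no gene, measure that drift. No guide sequences are printed because none were used here.

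Guide counts totaled 3394352 and 4052307 in the cultures against 4457673 and 8530791 in the tumors. Of 3653 guides, 3607 averaged 30 counts or more at day 0 and were kept, including all 183 non-targeting guides, and at most 12 kept guides had no reads in any of the 4 libraries. Levels below are log2 CPM, counts scaled to library size with TMM factors, and a gene's level in a library is the median over its kept guides. The 1% most abundant guides held 4.45% of the reads in each culture, but 11.9% and 11.6% in the tumors. Across the non-targeting guides the SD of the difference between the tumors was 1.365 on the log2 scale, against 0.534 between the cultures. Their mean difference between arms had a median of 0.08 and an SD of 0.817, and ran from -1.90 to 2.31. Gene levels were also further apart in the tumors than in the cultures for 234 of the 348 genes, with a median gap of 0.457 against 0.217.

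**Figure D1:**
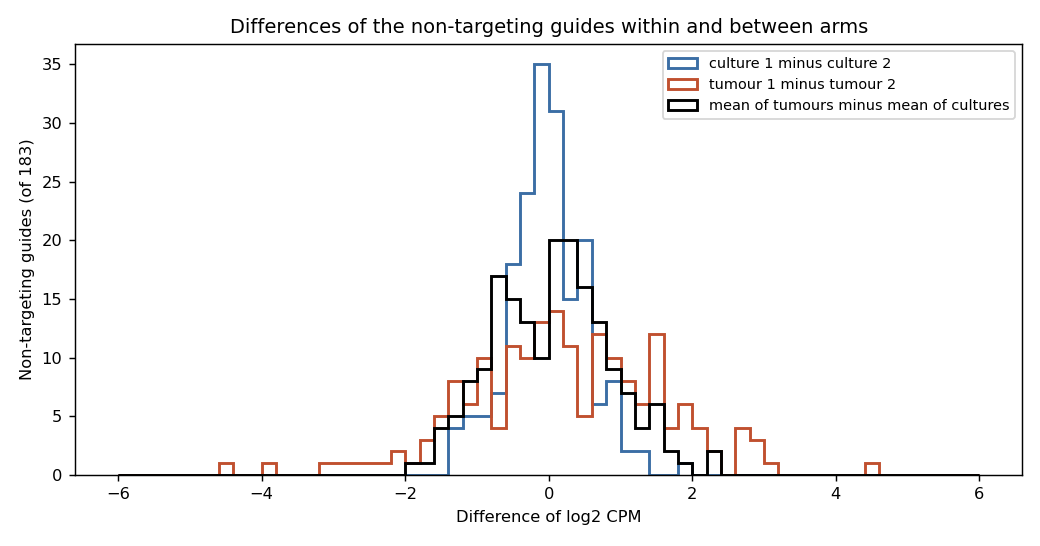
Histogram of the differences in log2 CPM (x axis) of the 183 non-targeting guides (y axis, number of guides) between the cultures, between the tumors, and between the means of the arms. The difference between the tumors spreads most widely (SD 1.365), that between the cultures least (SD 0.534), and the difference between arms lies around a median of 0.08 (SD 0.817).

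The library holds guides of 2 kinds by their number, and they behaved differently. The numbering runs through a first block of guides, here called early guides, and then a block that opens with the guides numbered for PCGF3, SS18 and BRD9 and is here called late guides. Of the genes, 299 have guides of both blocks and the other 49 have late guides only. Relative to the non-targeting median of the same library, the median level of these 299 genes by early guides was -0.207 and -0.231 in the cultures against -0.338 and -0.107 in the tumors. By late guides it was -1.35, -1.34, -1.76 and -1.44 in the same order, so late guides lay lower in every library. The difference between arms by early guides and that by late guides had the same sign for 150 of the 299 genes, or 50.2%, and across these genes, which are not independent replicates and share their libraries, Pearson's r was 0.01 and Spearman's rho 0.022. Results are therefore given for all kept guides of a gene and for its late guides alone.

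For guides taken singly, the quasi-likelihood test of edgeR called 0 higher and 0 lower in the tumors at a Benjamini-Hochberg adjusted p under 0.05 (0% of 3607 in each direction). At an unadjusted p under 0.05, 203 guides (5.63%) were higher and 109 (3.02%) lower, and of the non-targeting guides 9 were higher and 2 lower. DESeq2 called 74 higher and 29 lower, and limma on the authors' normalized values 0 and 0. A fit of all 6 libraries called 1 guide higher, which targets BMPR2.

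Of genes, limma called 1 higher in the tumors, BMPR2, and 1 lower, CSH2, over all kept guides at an adjusted p under 0.2 (0.287% of 348 in each direction). At an unadjusted p under 0.05 there were 13 higher (3.74%) and 22 lower (6.32%). Over late guides alone BMPR2 was again called higher (0.287%) and 0 genes were called lower (0%), with 8 higher (2.3%) and 29 lower (8.33%) at an unadjusted p under 0.05. A looser description counts genes with no overlap between arms. Over all kept guides both tumors lay above both cultures for 76 genes (21.8%) and below for 75 (21.6%), and over late guides for 56 (16.1%) and 96 (27.6%). An exact permutation test of 2 against 2 libraries cannot go below a two-sided p of 0.333, so no gene was tested by it. Scaling decided the balance of directions. Total counts without TMM moved the median difference of all genes from -0.02 to -0.54, and that of the non-targeting guides from 0.08 to -0.445. They gave 2 genes higher and 131 lower over all guides, and 2 and 74 over late guides. With scaling to the non-targeting guides the median of all genes was -0.092. All differences below are relative to the TMM scale.

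**Figure D2:**
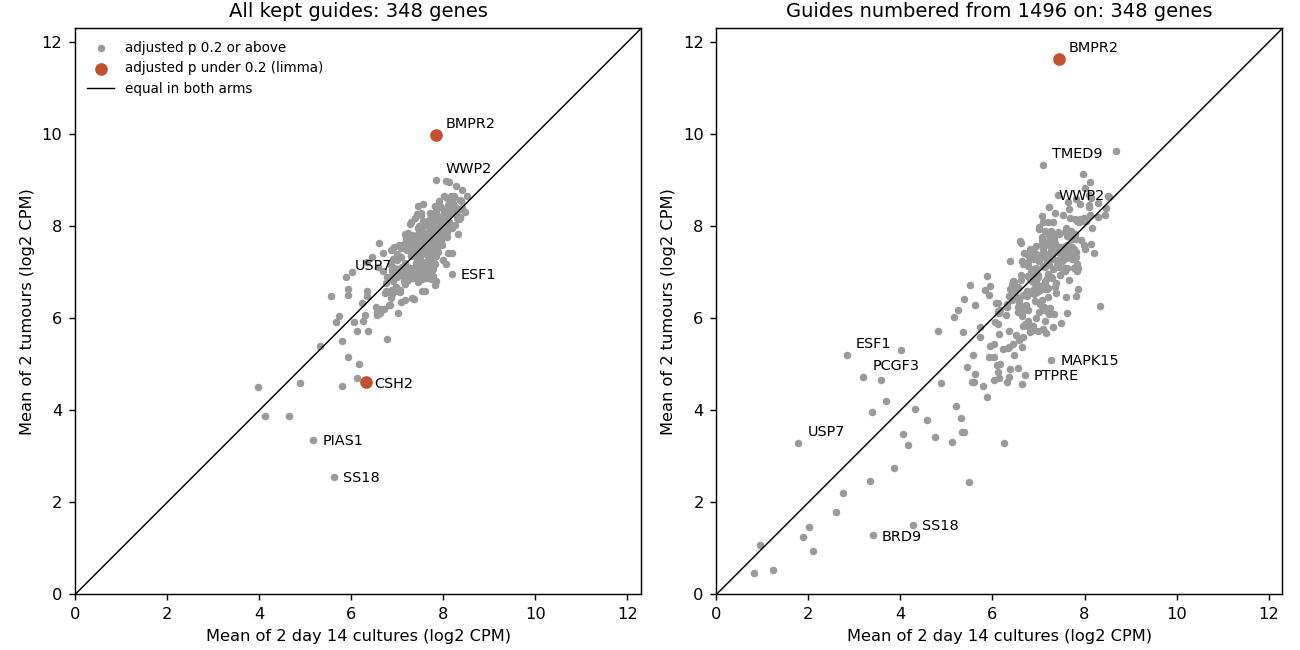
Mean level of each gene in the 2 cultures (x axis) against that in the 2 tumors (y axis), both in log2 CPM, over all kept guides (left) and over late guides (right), with the line of equal levels and with genes called by limma in red. BMPR2 stands far above the line in both panels, at 18 times its culture level by late guides, and CSH2 is called below it only on the left.

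BMPR2 had the largest difference toward the tumors of all 348 genes, by all guides and by late guides. It encodes the type II receptor for bone morphogenetic proteins (BMPs), a serine/threonine kinase that activates SMAD signaling, and lies on chromosome 2 at 202376327 to 202567751 (hg38). By late guides its level was 7.30 and 7.60 in the cultures against 11.79 and 11.46 in the tumors. Both tumors were far above both cultures and close to each other. The difference was 4.17 (95% confidence interval 3.24 to 5.11), an 18-fold excess, with an adjusted p of 0.0328 by limma, and 5 of 5 late guides were higher. Relative to the non-targeting guides the cultures lay at -1.04 and -0.76 and the tumors at 3.29 and 3.11, while at day 0 the gene was at 0.05 and 0.25.

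Read counts show the same for single BMPR2 guides. Guide 2081 had 655 and 1304 reads in the cultures against 19249 and 42266 in the tumors, and guide 2083 had 644 and 935 against 21093 and 36549. These ranked 8 and 3, and 6 and 4, among all guides of the tumors by reads. Guide 2084 went from 593 and 1067 reads to 13455 and 19572, and guide 2082 from 319 and 603 to 5892 and 5193. Guide 2085 was high in only 1 tumor, with 868 and 686 reads in the cultures against 8912 and 1178 in the tumors. The 5 late guides together held 0.0907% and 0.113% of the reads in the cultures against 1.54% and 1.23% in the tumors. Its 5 early guides held 0.265% and 0.244% in the cultures against 0.212% and 0.231% in the tumors, and differed between arms by 0.185 (95% confidence interval -0.695 to 1.065, from a fit in which every gene had the same standard error). Over all 10 guides the level was 7.54 and 8.15 in the cultures against 10.26 and 9.69 in the tumors, a difference of 2.13 (95% confidence interval 1.32 to 2.95, adjusted p 0.114 by limma). Without culture replicate 1 the call over all guides was lost (difference 1.83, adjusted p 0.394), and that over late guides was lost without culture replicate 1 (4.02, 0.503) or culture replicate 2 (4.33, 0.47). Over the alternatives run, the adjusted p was 2.15e-12 to 0.394 over all guides and 4.51e-12 to 0.503 over late guides.

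**Figure D3:**
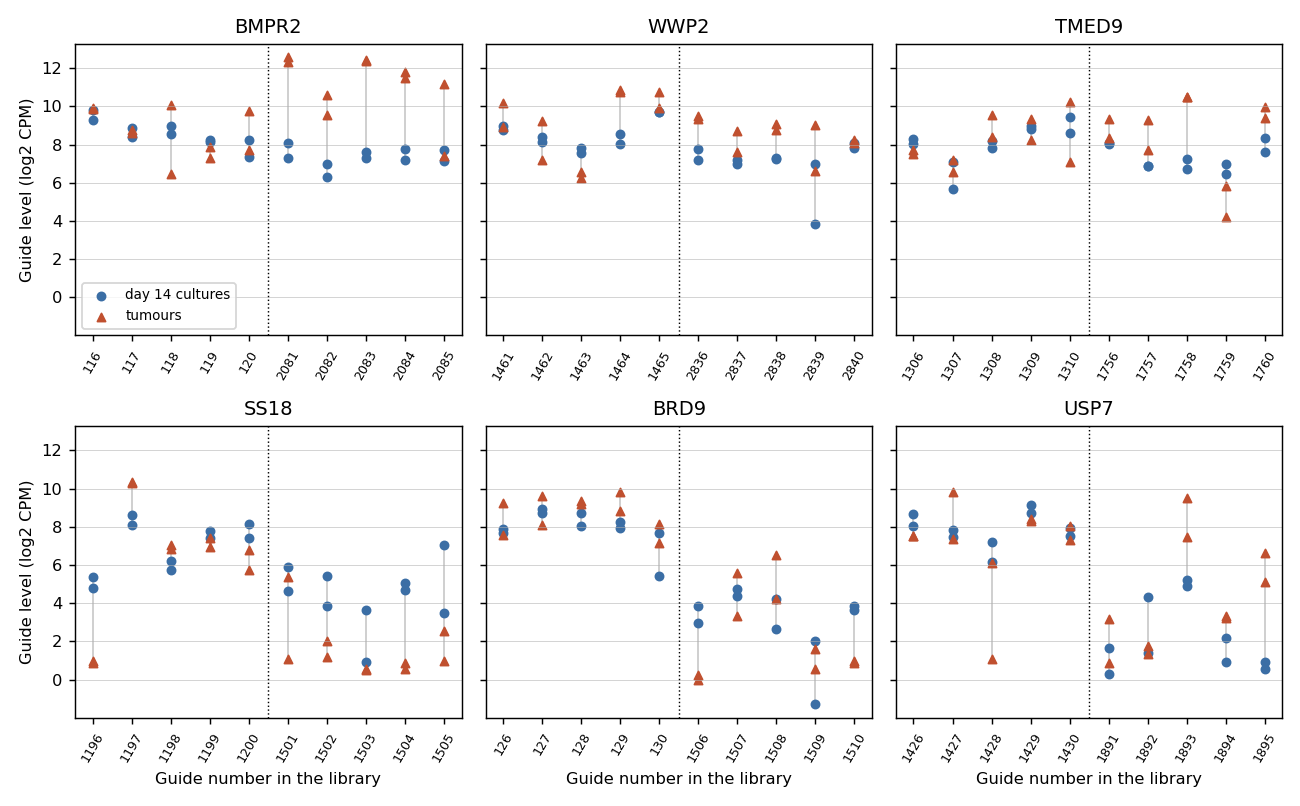
Level of each guide in log2 CPM (y axis) by its number in the library (x axis) for 6 genes, with circles for the 2 cultures, triangles for the 2 tumors, and early guides left of the dotted line. For BMPR2 the late guides 2081 to 2084 have both tumors far above both cultures, whereas its early guides do not, and for SS18 the late guides have low tumor levels.

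Of the 9 genes listed for TGF-beta and BMP signaling, 3 were in the library, and BMPR2 was the only member that rose. The median difference of the list, which is that of WWP2, was 1.15 over all guides and 1.19 over late guides, against -0.02 and -0.10 for all genes. The list was drawn up with earlier results of these data known, so its median does not measure a shift of the pathway. WWP2, a ubiquitin ligase that acts on SMAD proteins, had levels of 7.29 and 7.17 in the cultures against 8.07 and 8.77 in the tumors by late guides, and 7.79 and 7.91 against 9.16 and 8.85 by all guides. The tumors lay above the cultures in both summaries, by 1.19 and by 1.15, with adjusted p values of 0.416 and 0.32 by limma that did not pass. Its early guides, alone, differed by 1.083 (95% confidence interval 0.203 to 1.963), with an adjusted p of 0.376 by limma. The remaining member, TGFBRAP1, which binds TGF-beta receptors, differed by 0.61 over all guides and by -0.01 by late guides.

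SS18 and BRD9 pointed the other way by late guides. Both belong to the BAF complex, the SWI/SNF chromatin remodeler into which the SS18::SSX fusion is built, and SS18 (chromosome 18, 26016253 to 26091217, hg38) is the fusion partner itself. Whether each SS18 guide cuts the part of the gene kept in the fusion was not analyzed here. SS18 had late-guide levels of 3.86 and 4.69 in the cultures against 2.03 and 0.995 in the tumors. All 4 values lay far below the non-targeting guides, by 4.47 and 3.68 in the cultures against 6.47 and 7.36 in the tumors, and the tumors lay below the cultures. The difference was -2.76 (95% confidence interval -4.15 to -1.38), but the adjusted p was 0.262 by limma and SS18 was not called. Guide 1504 had 133 and 122 reads in the cultures against 4 and 10 in the tumors, and 5 of 5 late guides were lower in the tumors.

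Over all 10 guides SS18 was at 5.64 and 5.59 in the cultures against 3.98 and 1.14 in the tumors, a difference of -3.06 (95% confidence interval -4.84 to -1.28, adjusted p 0.32 by limma). The tumors lay below the cultures but far apart from each other. Among its early guides, guide 1196 went from 170 and 131 reads to 6 and 10, whereas guide 1197 went from 1590 and 1303 to 4864 and 8676. That guide held most SS18 reads in the tumors, and with counts summed over guides SS18 turned to a difference of 0.68 with an adjusted p of 0.195 by edgeR. In all, 12 of 18 alternatives passed the threshold, each with SS18 lower except the summed counts, and the adjusted p ran from 2.43e-35 to 0.465. Among them were the rank aggregation of guides (0.0925), the replicate block (0.00165) and the fits that left out either culture (at most 0.00102). Without tumor replicate 1 the difference was -4.51 and without tumor replicate 2 it was -1.64, each with the lone tumor assumed to vary like the cultures.

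BRD9, a bromodomain subunit of the non-canonical BAF complex (chromosome 5, 850291 to 892801, hg38), had late-guide levels of 2.95 and 3.84 in the cultures against 0.99 and 1.59 in the tumors. The tumors were lower, by 2.11 (95% confidence interval of the difference -3.34 to -0.87, adjusted p 0.301 by limma), and the gene was not called. The direction turned with counts summed over late guides (0.50). The median of the differences of its single late guides by edgeR was 0.027. Only some of its late guides were lower. Guide 1506 had 30 and 67 reads in the cultures against 3 and 4 in the tumors, and guide 1510 had 58 and 58 against 6 and 10, whereas guide 1508 had 24 and 88 reads in the cultures against 346 and 126 in the tumors. Over all 10 guides BRD9 differed by 0.93 in the other direction, with overlapping arms. By early guides alone it differed by 0.997 (95% confidence interval 0.118 to 1.877, adjusted p 0.388 by limma). There both tumors lay above both cultures, and 5 of 5 early guides were higher. SMARCD1, another BAF subunit, was at 5.29 and 5.47 in the cultures against 6.14 and 6.68 in the tumors by late guides, a difference of 1.03 (adjusted p 0.416 by limma). Thus 3 of the 9 listed BAF genes were measured, 0 were called, and by late guides 1 lay above and 2 below the cultures without overlap, against 16.1% and 27.6% of all genes. Their median difference was -2.11 by late guides, the value of BRD9, and 0.71 by all guides, the value of SMARCD1.

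The 3 measured members of the Polycomb repressive complex 1 (PRC1), which ubiquitinates histone H2A, all lay on the tumor side by late guides. PCGF3, a subunit of the non-canonical complex (chromosome 4, 705748 to 770089, hg38), was at 2.90 and 3.49 in the cultures against 5.10 and 4.35 in the tumors by late guides. The gene was thus depleted in every library, at 5.43 and 4.88 below the non-targeting median in the cultures against 3.40 and 4.00 below it in the tumors, and less so in the tumors. Its difference was 1.53 (95% confidence interval 0.37 to 2.69, adjusted p 0.357 by limma). Guide 1500 carried much of it, with 12 and 3 reads in the cultures against 129 and 139 in the tumors. Its late guides together held 0.0103% and 0.0192% of the reads in the cultures against 0.014% and 0.0182% in the tumors, which overlap. Over all guides PCGF3 differed by 0.05 with overlapping arms. RING1 and RNF2, the catalytic ubiquitin ligases, differed by 0.88 and 0.64 over all guides (adjusted p 0.466 and 0.481 by limma), with both tumors above both cultures. Their differences by late guides were smaller, 0.67 and 0.26 (adjusted p 0.64 and 0.804 by limma). By late guides 3 of 3 measured PRC1 genes had no overlap above the cultures, against 16.1% of all genes, and the median difference, that of RING1, was 0.67. None of the 3 was called.

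USP7 also had less depletion in the tumors. It is a deubiquitinase that stabilizes MDM2 and thereby restrains p53, and lies on chromosome 16 at 8892097 to 8975328 (hg38). Its late-guide levels were 1.38 and 2.19 in the cultures against 3.22 and 3.35 in the tumors. All were low, the tumors less so, and the difference was 1.503 (95% confidence interval 0.41 to 2.60, adjusted p 0.345 by limma). Guide 1895 had 6 and 5 reads in the cultures against 132 and 690 in the tumors, guide 1893 had 122 and 177 against 665 and 5015, and guide 1892 had 9 and 95 against 8 and 21. Its early guides did not separate the arms, and over all guides the difference was 1.01 (adjusted p 0.466). By late guides 1 of 4 measured p53 regulators, USP7, lay above the cultures without overlap and 2 lay below, against 16.1% and 27.6% of all genes. MDM4, an inhibitor of p53, was at 2.02 and 1.73 in the cultures against 1.599 and 0.886 in the tumors by late guides, a difference of -0.63. None of the 4 was called, and their median difference was -0.38.

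**Figure D4:**
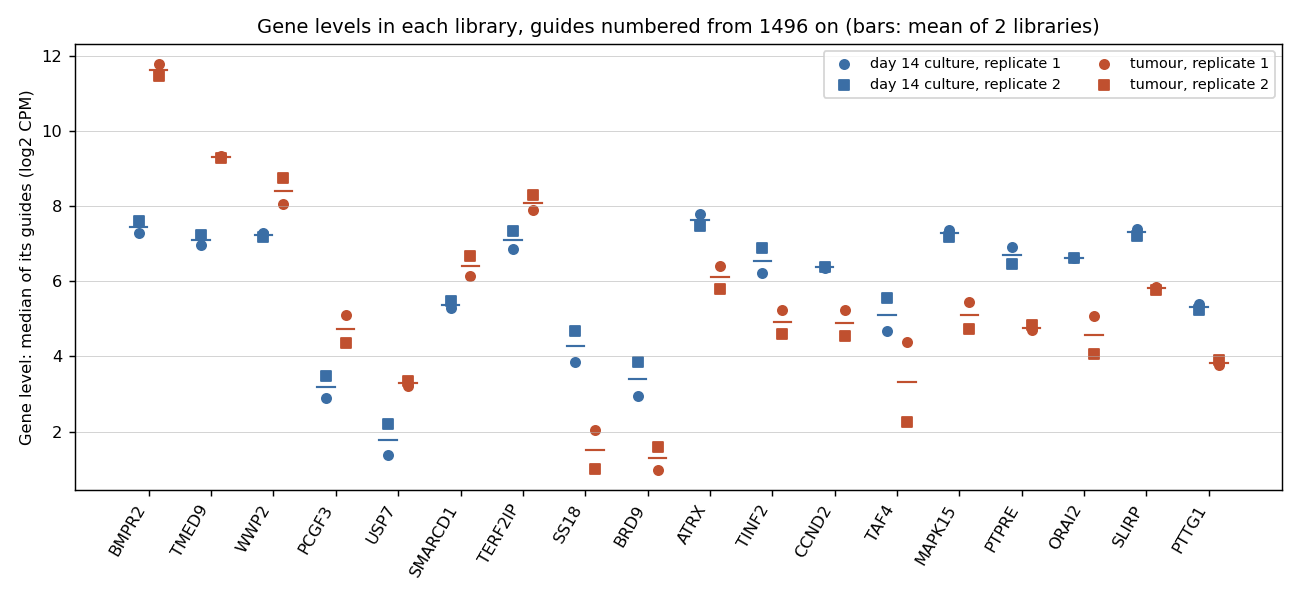
Level of 18 genes by their late guides in each of the 4 libraries (x axis, genes; y axis, log2 CPM; blue for cultures and red for tumors, with bars at the mean of the 2 libraries of an arm). BMPR2, TMED9, WWP2, PCGF3, USP7, SMARCD1 and TERF2IP have both tumors above both cultures, and SS18, BRD9, ATRX, TINF2 and the genes to their right have both tumors below them; only BMPR2 passed the test.

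KAT2A and TADA2B, the acetyltransferase and an adaptor of the SAGA complex, gave different answers by the kind of guide. Over all guides KAT2A was at 6.05 and 5.97 in the cultures against 6.60 and 7.40 in the tumors, a difference of 0.99 (adjusted p 0.466 by limma). TADA2B was at 7.61 and 7.30 against 8.14 and 8.73, a difference of 0.98 (adjusted p 0.466). By late guides TADA2B lay below the cultures, by 0.83 (95% confidence interval of the difference -2.09 to 0.43), and the arms of KAT2A overlapped, at 3.27 and 3.40 in the cultures against 1.47 and 3.45 in the tumors, all far below the non-targeting guides. The tumors disagreed on single guides, since guide 2467 had 7 and 1613 reads and guide 2468 had 2 and 868 in tumors 1 and 2. TAF4, a TFIID subunit kept in this list, was lower in both tumors by late guides, at 4.38 and 2.24 against 4.69 and 5.54. Of 7 measured genes of acetyltransferase complexes 0 were called, and the median difference was -0.83 by late guides and -0.25 by all guides.

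The SUMO pathway, in which SAE1 and UBA2 activate the small modifier and PIAS1 helps choose targets, showed depletion in both arms and no called difference between them. By late guides the median of its 6 measured members, which include SUMO1P3, lay 4.63 and 4.57 below the non-targeting guides in the cultures, and 5.33 and 4.97 below them in the tumors. Their median difference was -0.79 by late guides and 0.08 over all guides, against -0.10 and -0.02 for all genes. SUMO2 itself (chromosome 17, 75165586 to 75182959, hg38) was at 3.91 and 3.24 in the cultures against 5.65 and 3.65 in the tumors. The arms overlapped, and the difference of 1.08 had a 95% confidence interval of -0.86 to 3.01. Over all guides it was 0.07 (-1.12 to 1.26). By early guides alone it was -0.959 (-1.839 to -0.079, adjusted p 0.441 by limma), with both tumors below both cultures. Guide 3167 had more reads in both tumors, 497 and 339, than in the cultures, 60 and 8. Guide 3168 had fewer, 134 and 76 against 211 and 311. Guide 3166 had 270 and 93 reads in the tumors against 60 and 12 in the cultures. These reads are unscaled, and tumor 2 had 8530791 in all against 3394352 in culture 1. The 93 reads of guide 3166 in tumor 2 were thus no clear excess. UBA2 differed by -1.11 by late guides with both tumors below both cultures. For PIAS1 the difference over all guides was -1.82 (95% confidence interval -3.89 to 0.26), with the tumors at 4.95 and 1.76. It was -3.44 without tumor replicate 1 and -0.22 without tumor replicate 2, and counts summed over guides turned it to 0.24.

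CSH2, the other called gene, encodes placental lactogen, a hormone made by the placenta, and lies on chromosome 17 at 63872012 to 63873766 (hg38) among near-identical copies. Whether its 10 guides, all late, also match those copies was not analyzed here. Its level was 5.94 and 6.68 in the cultures against 4.52 and 4.70 in the tumors. It fell in both tumors, by 1.70 on the log2 scale (95% confidence interval of the difference -2.49 to -0.915, adjusted p 0.196 by limma), and 8 of 10 guides were lower. Guide 2463 went from 225 and 495 reads to 25 and 8, guide 3382 from 278 and 111 to 8 and 11, and guide 2461 had 503 and 647 against 553 and 746. Fitted together with the late guides of the other genes, the same values had an adjusted p of 0.318. The call over all guides held in 12 of 18 alternatives and was lost, among others, with median-ratio size factors (0.28) and without culture replicate 2 (0.997), and its adjusted p ran from 1.69e-07 to 0.997.

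Other genes named by the study for its screens were not called. Over their 10 guides, all late, C8orf82 differed by -1.42, FRG2 by -1.27 and BICDL1, an adaptor for dynein transport, by -1.17, with both tumors below both cultures and adjusted p values of 0.409, 0.466 and 0.481 by limma. For BICDL1 the direction turned with counts summed over guides, to 2.38 with an adjusted p of 0.0648 by edgeR, which passed the threshold. Its guides together held 0.123% and 0.11% of the reads in the cultures against 0.551% and 0.297% in the tumors, and the difference by medians was -0.56 without tumor replicate 1 and -1.79 without tumor replicate 2. C8orf82 was at 5.83 and 6.43 in the cultures against 4.25 and 5.16 in the tumors. FRG2 was at 5.67 and 5.92 against 5.11 and 3.93, with 9 of 10 guides lower. LGALS7B, a galectin, differed by -0.29 (95% confidence interval -0.99 to 0.41). FRG2 and LGALS7B have near-identical copies elsewhere in the genome, and matches of their guides to these were not analyzed here.

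Telomere genes went both ways by late guides. TINF2, a shelterin protein that holds the complex together at chromosome ends, was at 6.21 and 6.89 in the cultures against 5.22 and 4.597 in the tumors. ATRX, a chromatin remodeler that works with DAXX at telomeres, was at 7.78 and 7.48 in the cultures against 6.42 and 5.81 in the tumors. Both were lower in both tumors, by 1.64 (95% confidence interval of the difference -2.79 to -0.49) and 1.51 (-2.55 to -0.48), with 5 of 5 late guides lower for each. TERF2IP, the shelterin partner of TRF2, lay above the cultures by 1.00 instead. DAXX differed by 0.57 and TERF1 by -0.52. Of the 5 measured telomere genes 2 lay above the cultures without overlap and 2 below, against 16.1% and 27.6% of all genes. With adjusted p values of 0.318, 0.318 and 0.455 by limma TINF2, ATRX and TERF2IP were not called, nor were DAXX (0.635) and TERF1 (0.677). With counts summed over late guides DAXX passed (1.56, adjusted p 0.131 by edgeR). Over all guides the arms of TINF2 and ATRX overlapped.

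Among the remaining genes with the smallest p by late guides, TMED9 was the second after BMPR2 on the tumor side. TMED9 carries cargo between the endoplasmic reticulum and the Golgi and lies on chromosome 5 at 177592203 to 177597242 (hg38). Its levels were 6.96 and 7.22 in the cultures against 9.35 and 9.30 in the tumors, a difference of 2.23 (95% confidence interval 1.34 to 3.12), but with an adjusted p of 0.242 by limma it was not called. It did pass with several other settings, among them the scaling to the non-targeting guides. Guide 1758 had 429 and 719 reads in the cultures against 5529 and 10003 in the tumors, while guide 1759 was lower in both tumors. Over all guides TMED9 differed by 0.55. EDIL3, an integrin ligand of the matrix, TPD52L1, a relative of tumor protein D52, and NME3, a nucleoside diphosphate kinase, were higher in both tumors by 1.16, 1.17 and 1.21, and none was called.

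On the other side MAPK15, an atypical MAP kinase, was at 7.37 and 7.19 in the cultures against 5.46 and 4.74 in the tumors. PTPRE, a receptor tyrosine phosphatase, was at 6.93 and 6.47 against 4.69 and 4.85, and ORAI2, a calcium channel subunit, at 6.63 and 6.63 against 5.07 and 4.07. Each had both tumors well below both cultures, with differences of -2.18, -1.93 and -2.06. Their adjusted p values were 0.262, 0.262 and 0.301 by limma, so none was called. Over all guides MAPK15 differed by -0.64, and the arms of PTPRE and ORAI2 overlapped. SLIRP, which protects mitochondrial messenger RNA, differed by -1.49 by late guides and by -1.10 over all guides. PTTG1, the securin of chromosome separation, CLTB, a clathrin light chain, and CCND2, a cyclin of G1, differed by -1.48, -1.34 and -1.49 by late guides and were not called either (adjusted p 0.301, 0.318 and 0.318 by limma). By early guides PTTG1 and CCND2 differed by -0.272 and -0.389, but CLTB by 0.782, with both tumors above both cultures. Over all guides CLTB differed by -0.64.

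Over all guides the next genes by p on the low side were ESF1, NFATC2IP, CSTB, ARF3 and NKX6-2, with differences of -1.21, -1.03, -0.95, -0.88 and -0.89. ESF1, which takes part in ribosome assembly, showed how far the summary matters. It was at 8.11 and 8.25 in the cultures against 6.93 and 7.01 in the tumors over all guides. By late guides it was at 4.50 and 1.19 in the cultures against 4.78 and 5.63 in the tumors, above the cultures by 2.36 with a 95% confidence interval of -0.57 to 5.30. On the high side stood LRRK2, a kinase, ADH5, which clears formaldehyde, EPS8L1, a relative of the actin regulator EPS8, and TPD52L1, with differences of 0.80, 0.83, 0.86 and 0.94. Adjusted p values of these genes were 0.32 to 0.481 by limma, and none was called.

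The other gene lists held no called gene. By late guides the levels of genes for ribosomes and ribosome assembly (6 measured), splicing (4) and cell cycle and replication (7) were low in every library, with list medians between 2.48 and 5.95 below the non-targeting guides, and their median differences were -0.55, -0.31 and 0.13. Kinases and growth signaling had 5 of 11 genes below the cultures without overlap and 1 above, against 27.6% and 16.1% of all genes, with PIK3C2B, a lipid kinase, at -1.07. Mitochondrial, peroxisomal and redox genes had 6 of 13 below and 2 above. In the matrix and adhesion list 2 of 8 genes lay below the cultures without overlap and 1 above, against 27.6% and 16.1% of all genes. The 2 below were FN1 (fibronectin), which differed by -0.98, and COL14A1 (a collagen), by -1.14. By early guides FN1 differed by 0.505, with both tumors above both cultures, and COL14A1 by 0.222. In the list for immune recognition 2 of 5 genes lay below the cultures without overlap and 0 above, against the same shares of all genes. BCL10, an adaptor of antigen receptor signaling, differed by -1.25 by late guides (adjusted p 0.416 by limma) and by -0.49 over all guides. Its early guides went the other way, by 0.232, with both tumors above both cultures. Median differences of the lists for Wnt signaling, surface receptors, transport, immune recognition, kinases, mitochondrial genes, matrix and SSX genes were -0.22, 0.03, -0.17, -0.02, -0.07, 0.12, -0.55 and -0.23, beside -0.10 for all genes. The lists have 2 to 13 measured members, and no test was made over them.

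**Figure D5:**
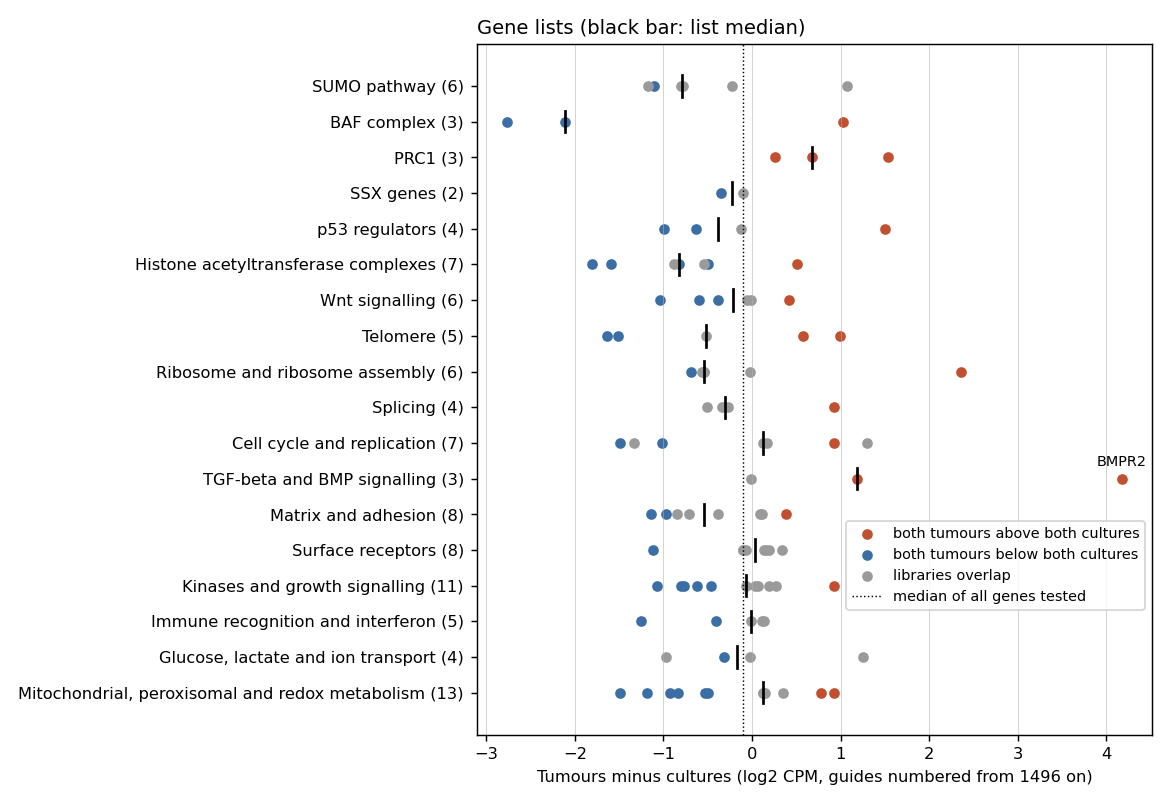
Difference between tumors and cultures in log2 CPM by late guides (x axis, where the label gives their numbers) for each member of 18 gene lists (y axis, number measured in brackets), with list medians as black bars and the median of all genes, -0.10, as a dotted line. Red points have both tumors above both cultures and blue points both below, and BMPR2, at 4.17, is the only point beyond 2.5 on the tumor side.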

How the data were processed

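Counts as deposited by the authors give the reads of each guide in 6 libraries, unscaled. By the methods, MAGeCK assigned read pairs to guides of the custom library, and the submitters' processing notes also name hg38, with no version of either. The authors' second table holds normalized signal values, each count column times 1 factor (1.45 and 1.17 for the cultures, 1.41 and 0.865 for the tumors), by a rule not given in the sources used here. No column was without a sample.

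Guides averaging 30 counts or more at day 0 were kept. Counts of the 2 in vivo and 2 day 14 libraries were scaled by TMM. Guides were tested with edgeR 4.0.16 (quasi-likelihood, R 4.3.3). Gene levels, the median over at least 3 guides of log2 CPM (prior count 2), were tested with limma 3.58.1 at an adjusted p under 0.2, two-sided, with Benjamini-Hochberg adjustment over 348 genes. Rank aggregation of guides, the kind of test the study used, was run as an alternative. Named genes were, in each direction and for either set of guides, the 10 with the smallest p among those with no overlap between arms, the study's named genes and list examples. Members and lists were chosen with earlier results of these data known. Gene positions are from GENCODE on hg38. DESeq2 was version 1.42.0. The tests were run on simulated counts with large known changes, a run that does not measure their power at the smaller differences of most genes here. Depth per library is given with the data above. Plots used Python 3.11.15 and matplotlib 3.10.9. Reads carry no molecular identifiers.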

Additional observations from a re-analysis of the deposited data

How the results depend on the processing

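With 2 libraries an arm the error rests on few values, and late guides of depleted genes had few reads, so their differences rest on small counts. Guide calls stayed at 0 with the other scalings and filters, the replicate block, the authors' values and without either culture. DESeq2 called 74 guides higher and 29 lower, the fit of all 6 libraries 1 higher, and leaving out a library gave 0 to 536 higher and 0 to 377 lower. The lone tumor is then assumed to vary like the cultures, and the high counts came without in vivo replicate 1 (536 and 377) or replicate 2 (464 and 349).

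For genes, counts are given as higher and lower over all guides and then over late guides. Median-ratio size factors, no filter, a filter of 100 counts and a prior count of 0.5 left 0 lower over all guides. Scaling to the non-targeting guides gave 3 lower over all guides, and 2 higher and 5 lower over late guides. Total counts without TMM gave 2, 131, 2 and 74, the fit of all 6 libraries 2, 6, 7 and 28, the authors' values 4 lower, 2 higher and 2 lower, the mean of the guides 3 lower, 7 higher and 29 lower, summed counts 63 higher and 14 higher, rank aggregation 2 lower over all guides, a prior count of 10 gave 2 higher over late guides, and a trended prior 4 higher and 2 higher. At an adjusted p under 0.05 or 0.1, 0 were called over all guides. Leaving out a library gave 0 to 62 and 1 to 70 over all guides, and 0 to 30 and 0 to 49 over late guides, again with the high counts for a lone tumor.

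Deviations of same-numbered libraries from their group means were correlated to check for pairing, with a value of -0.0026 over guides and -0.00489 over genes. With 2 libraries an arm and wide drift between the tumors, this cannot decide whether same-numbered libraries are paired. A replicate block called 4 genes lower over all guides and changed no other count by over 1.5 times.

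Of 1103 recomputed gene values, 855 kept direction and side of the threshold, 202 newly passed it, 10 lost it and 36 turned. SUMO2 over all guides turned to 0, -0.44, -0.30 and -0.71 with the non-targeting scaling, total counts, without culture replicate 2 and without tumor replicate 1, where KAT2A by late guides was 0.095. Over the libraries left out, the 2 ran from -0.71 to 0.83 and from -1.85 to 0.095. With the mean of the guides ESF1 was 0.29, KAT2A -0.30, LGALS7B 0.29, SUMO2 -0.17 and TADA2B -0.092 over all guides, and SMARCD1 -0.035 over late guides. With summed counts ARF3 was 0.59, BICDL1 2.38, ESF1 0.65, LGALS7B 0.30, NFATC2IP 0.40, PIAS1 0.24 and SS18 0.68 over all guides, and BRD9 0.50, COL14A1 0.37, KAT2A 1.52, MDM4 0.18 and PTPRE 0.13 over late guides. For rank aggregation the value compared is the median of the differences of single guides by edgeR, not the direction of the ranks. It was 0.22 for ESF1, 0.66 for LGALS7B and -0.90 for SUMO2 over all guides. Over late guides it was 0.027 for BRD9, 1.94 for KAT2A and -0.082 for NME3. By early guides alone, an alternative added after seeing the data, ADH5 was -0.028, CSTB 0.10, EPS8L1 -0.076, PIAS1 0.16, SUMO2 -0.96, TMED9 -0.23 and USP7 -0.019. The cause of these changes was not tested.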

Other observations

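Some genes differed more between the tumors than between the arms, and are given here because of it, after their values were seen. NRBP2, by late guides, was at 0.54 in tumor 1 and 6.04 in tumor 2, against 6.13 and 6.38 in the cultures. MAB21L1 was at 0.22 and 4.65 against 5.68 and 5.29, and its difference between arms, -3.05, was the lowest of all genes by late guides. HPN, a cell-surface protease, was at 1.17 and 5.33 against 3.84 and 4.49. SLC2A3, a glucose transporter, was at 7.04 and 10.33 against 7.43 and 7.42. ERCC6L2, a helicase-like DNA repair protein, went the other way, at 8.97 and 5.97 against 7.07 and 6.59. Over late guides 108 of 348 genes were more than 1 apart between the tumors on the log2 scale and 24 between the cultures.

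Single guides also stood far above the others of their gene. BICDL1 guide 2458 had 663 and 389 reads in the cultures and 21402 and 21453 in the tumors, while the median of its gene was lower in both tumors. MAPK15 guide 676, an early guide, had 21918 reads in tumor 2 and 908 in tumor 1, against 1625 and 1630 in the cultures. SUMO2 guide 1230, also early, had 2199 and 2727 reads in the cultures and 6437 and 16454 in the tumors. The highest level of any non-targeting guide, taken in each library by itself, was 10.78 and 12.16 log2 CPM in tumors 1 and 2, against 10.85 and 10.94 in the cultures. In tumor 2 that level lay above guides 2458, 676 and 1230. Why single guides were high was not tested. In tumor 1 BICDL1 guide 2458 lay above every non-targeting guide. The BICDL1, MAPK15 and SUMO2 guides were chosen after their values were seen, and no test was made on them.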
